A study of Mus musculus with 6 samples.

Results

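Coenzyme Q synthesis was followed through 10 genes, Pdss1, Pdss2, Coq2, Coq3, Coq5, Coq6, Coq7, Coq9, Coq8a and Coq8b, among the 49671 Ensembl genes of the count table. The set was chosen by pathway around Coq8a, and Coq8a was selected on its values in these data, since it was lower with the Cxxc5 hairpin in all 3 pairs of libraries. All differences between the hairpins are therefore given for the members as values with their error, as descriptions and without a p. All 10 members passed the filter on low counts, with 234 to 2284 reads per member and library. RNA was sequenced from BALB/c mouse bone marrow enriched for stem and progenitor cells. The cells had been infected with retrovirus that carried a short hairpin RNA against Cxxc5 (shCxxc5, 3 libraries) or a hairpin with no mouse target (shCtrl, 3 libraries). In both groups GFP-positive cells, which carry the virus, were sorted from the LSK fraction (lineage-negative, Sca-1-positive, Kit-positive, the fraction with blood stem cells and multipotent progenitors). Each library came from cells pooled over several animals, and the sources used here give neither the animals' age nor the hairpin's promoter. Libraries are numbered 2, 3 and 4 in both groups, and a pair means the shCxxc5 and shCtrl libraries of equal number. No label says that the numbers are separate infections, so any spread between libraries may be technical.

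Coenzyme Q, or ubiquinone, is a lipid of the inner mitochondrial membrane that carries electrons from complexes I and II, and from several dehydrogenases, to complex III. Its ring comes from 4-hydroxybenzoate and its tail from the isoprenoid units of the mevalonate pathway. The tail synthase is built from the Pdss1 and Pdss2 proteins, Coq2 joins tail and ring, and a complex on the matrix side of the membrane then modifies the ring. Coq8a and Coq8b are paralogs of the UbiB family, atypical kinase-like ATPases that this complex needs. In humans, inherited defects of COQ8A cause cerebellar ataxia and those of COQ8B a kidney disease with nephrotic syndrome.

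Coq8a was the member that differed most between the hairpins, at 15.3 ± 0.651 CPM in shCxxc5 and 24.4 ± 2.23 CPM in shCtrl (SD, n = 3 each; CPM, the read count over the TMM-scaled library size). Its paralog Coq8b lay at 32.03 ± 2.59 CPM in shCxxc5 and 31.7 ± 4.90 CPM in shCtrl. The genes of the tail synthase went the other way, with Pdss1 at 25.7 ± 0.461 CPM and Pdss2 at 18.8 ± 1.80 CPM in shCxxc5, against 20.7 ± 0.821 CPM and 15.3 ± 1.54 CPM in shCtrl. Summed over the 10 members, the level was 374, 371 and 376 CPM in shCxxc5 replicates 2, 3 and 4 and 357, 383 and 391 CPM in shCtrl replicates 2, 3 and 4. These sums overlapped between the groups. In bulk RNA, fewer cells of a type and less RNA per cell cannot be told apart.

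The start regions of Coq8a and Pdss1 are shown because the protein that the hairpin targets, Cxxc5, has a CXXC zinc finger, a domain that binds unmethylated CG dinucleotides. Each sequence is a RefSeq window on GRCm38.p6 from 250 bases before to 50 bases after a gene's start, read 5′ to 3′ on the gene's strand, with every CG in capitals. Coq8a has 2 such windows, 2535 bases apart on the minus strand, at chr1:180195971-180196270 and chr1:180193436-180193735. The Pdss1 window lies on the plus strand at chr2:22895272-22895571.
Coq8a upstream: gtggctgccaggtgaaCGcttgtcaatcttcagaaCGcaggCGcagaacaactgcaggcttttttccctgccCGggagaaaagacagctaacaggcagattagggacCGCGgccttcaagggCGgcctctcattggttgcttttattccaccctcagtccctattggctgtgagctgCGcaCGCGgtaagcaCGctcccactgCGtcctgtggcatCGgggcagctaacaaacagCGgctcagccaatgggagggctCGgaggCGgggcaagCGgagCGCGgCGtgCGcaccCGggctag
Coq8a downstream: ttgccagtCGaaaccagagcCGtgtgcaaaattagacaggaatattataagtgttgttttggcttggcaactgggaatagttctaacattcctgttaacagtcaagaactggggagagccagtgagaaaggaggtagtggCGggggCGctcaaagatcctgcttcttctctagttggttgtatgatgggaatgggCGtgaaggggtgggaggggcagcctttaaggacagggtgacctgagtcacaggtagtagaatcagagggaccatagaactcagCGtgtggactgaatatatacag
Pdss1: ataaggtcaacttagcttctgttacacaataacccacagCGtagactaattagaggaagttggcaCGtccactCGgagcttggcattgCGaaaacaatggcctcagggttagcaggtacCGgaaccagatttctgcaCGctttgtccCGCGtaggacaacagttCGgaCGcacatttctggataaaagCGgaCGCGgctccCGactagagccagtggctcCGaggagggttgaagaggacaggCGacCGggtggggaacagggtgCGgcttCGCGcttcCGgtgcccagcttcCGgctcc
The upstream Coq8a window and the Pdss1 window held 22 CG each, and the downstream Coq8a window held 6. The median over all 32817 windows of this length was 7 CG. Counts per gene do not tell which Coq8a start was used.

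Windows were matched by symbol for 8 of the 10 members, all but Coq5 and Coq8b, and gave 10 windows. The number of CG in them ran from 6, in the downstream Coq8a window, to 39 in the Coq9 window, and 9 of the 10 were above the median of all windows. The observed over expected ratio of CG was 0.773 in the upstream Coq8a window, 0.383 in the downstream one and 0.918 in the Pdss1 window, against a median of 0.383 over all windows. Short motifs that contain a CG were searched on both strands. The letters TGCGCA, which occur in binding sites of NRF1, a factor of nuclear genes for mitochondria, were present in 3 of the 10 windows and in 7.75% of all windows. These were the windows of Coq2, the upstream Coq8a window and the second of a pair of overlapping Coq3 windows. CACGTG was in 0 of the 10 and in 7.15% of all windows, and TGACGT was in 0 of the 10 and in 7.51% of all windows. A match of letters describes a window and shows no binding.

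Library totals ran from 16558791 to 27754019 reads in shCxxc5 and from 15002414 to 23285446 reads in shCtrl. The targeted gene, Cxxc5, lay at 6.74, 17.4 and 17.9 CPM in shCxxc5 and 82.2, 59.9 and 57.9 CPM in shCtrl in the same order, without overlap. In both groups the replicate 2 library differed widely from the other 2. Ly6a, the gene of the sort marker Sca-1, lay at 33.1 and 46.4 CPM in shCxxc5 and shCtrl replicate 2, against 703 to 804 CPM in the other libraries, while Kit ran from 82.4 to 110 CPM over all 6. Cd34 and Flt3 were lower in replicate 2 too, at means of 634 and 187 CPM against 1117 and 344 CPM in replicates 3 and 4. Slamf1, Hlf and Mecom were higher there, at 84.4, 95.3 and 58.6 CPM against 15.6, 30.5 and 43.9 CPM. Procr, the last of these 8 sort and stem marker genes, lay at 13.8 CPM against 11.2 CPM. The summed level of 8 megakaryocyte genes was 1602, 303 and 296 CPM in shCxxc5 replicates 2, 3 and 4 and 6734, 480 and 477 CPM in shCtrl replicates 2, 3 and 4, so it was lower in shCxxc5 in each pair. That of 7 erythroid genes was 212, 16.6 and 16.5 CPM in shCxxc5 and 181, 23.5 and 24.3 CPM in shCtrl, lower in shCxxc5 in pairs 3 and 4 only. The replicate 2 libraries also differed from each other. The summed level of 8 granulocyte and monocyte genes was 5722 CPM in shCxxc5 and 776 CPM in shCtrl replicate 2, against 955 to 1159 CPM in the other 4 libraries. Granule genes such as Mpo (2914 CPM in shCxxc5, 361 CPM in shCtrl) carried that sum, while Csf1r (25.9 and 47.3 CPM) and Itgam (14.9 and 27.1 CPM) went the other way. For 5 mast cell and basophil genes the sums were 1348 CPM and 167 CPM, against 286 to 314 CPM. Of 6 lymphoid genes, with sums of 21.8 to 62.5 CPM, the T cell gene Cd3e had 0 counts in every library. The part of these cell types in the members' values was not tested, and the values are given in each pair and also for replicates 3 and 4 alone.

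Coq8a (ENSMUSG00000026489; GRCm38, chr1:180165238-180199602, minus strand) lay at 14.6, 15.8 and 15.4 CPM in shCxxc5 replicates 2, 3 and 4, against 21.9, 24.8 and 26.3 CPM in shCtrl replicates 2, 3 and 4. Its raw counts were 419, 355 and 250 in shCxxc5 and 519, 557 and 391 in shCtrl. Each shCxxc5 library was below each shCtrl library, and the shCxxc5 libraries were the more alike of the groups. Within pairs 2, 3 and 4 the shCxxc5 level was 66.4%, 63.7% and 58.7% of the shCtrl level. The fitted log2 fold change was -0.67 (SE 0.12) over all 6 libraries and -0.70 (SE 0.09) in replicates 3 and 4 alone, so it was as large without the replicate 2 libraries. Some markers of other cell types moved with the hairpin in those 4 libraries too. The median log2 fold change there was -0.68 over the megakaryocyte genes tested, -0.55 over the erythroid genes and 0.50 over the mast cell and basophil genes. In these lists 5, 3 and 2 genes were called lower and 0, 0 and 3 higher, against 1278 and 1555 of all 14193 genes. The 2 mast cell and basophil genes called lower were Cpa3 (-0.12) and Fcer1a (-0.44). Medians were -0.05 over the granulocyte and monocyte genes and 0.04 over the sort and stem marker genes, with calls in both directions. The part of these cell types in the Coq8a difference was not tested. Among all 14637 genes tested, 4.94% had a lower fitted log2 fold change.

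Coq8a exons share 366 bases, 6.91% of their length, with exons of Cdc42bpa, a kinase gene on the opposite strand, and no source used here gives the strand setting of the counting. Cdc42bpa lay at 40.5, 25.0 and 23.2 CPM in shCxxc5 replicates 2, 3 and 4, against 79.0, 30.2 and 27.0 CPM in shCtrl replicates 2, 3 and 4. Cdc42bpa was thus also lower in each pair, with log2 ratios of -0.96, -0.27 and -0.22 in pairs 2, 3 and 4. The shared bases are 1.70% of its own exon length, and their part in the Coq8a difference was not tested. No 50-base stretch of a Coq8a transcript occurs in the transcripts of Coq8b.

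Coq8b (ENSMUSG00000003762; GRCm38, chr7:27233023-27257950, plus strand) lay at 29.5, 31.9 and 34.7 CPM in shCxxc5 replicates 2, 3 and 4, against 26.1, 33.9 and 35.1 CPM in shCtrl replicates 2, 3 and 4. The groups overlapped, and the replicate 2 library was the lowest in each. Log2 ratios in pairs 2, 3 and 4 were 0.18, -0.09 and -0.02, with a fitted log2 fold change of 0.02 (SE 0.15). Its exons share 455 bases with the antisense gene Gm15567, which had at most 1 read in a library.

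Because both paralogs are read in the same library, their ratio does not depend on the scaling between libraries. Of the reads of Coq8a and Coq8b together, Coq8a held 33.0%, 33.2% and 30.8% in shCxxc5 replicates 2, 3 and 4, against 45.7%, 42.3% and 42.8% in shCtrl replicates 2, 3 and 4. The highest shCxxc5 share had an exact (Clopper-Pearson) 95% interval of 30.4% to 36.1%, and the lowest shCtrl share one of 39.6% to 45.0%. These intervals cover counting error only, not the spread between animals. Per kilobase of exon, the log2 ratio of Coq8a to Coq8b averaged -0.99 ± 0.09 in shCxxc5 and -0.29 ± 0.11 in shCtrl (SD, n = 3 each). Since Coq8a was selected on this contrast, the difference in ratio is a description too.

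**Figure D1:**
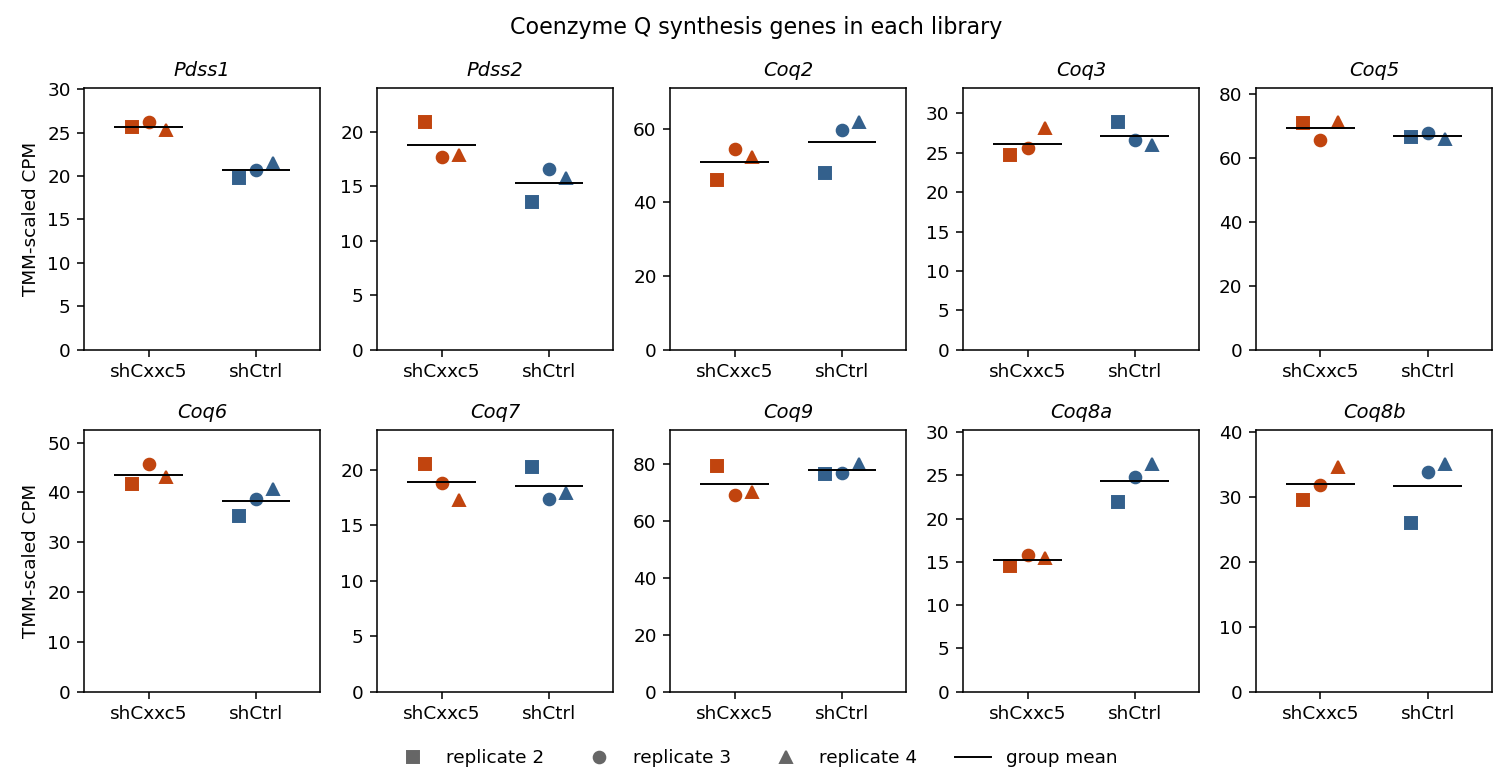
TMM-scaled CPM of the 10 members in each library, with a panel per gene, the y axis starting at 0, shCxxc5 left of shCtrl, marker shapes for replicate numbers and a line at the mean of 3 libraries. Coq8a is the panel in which all shCxxc5 points lie below all shCtrl points, at 14.6 to 15.8 CPM against 21.9 to 26.3 CPM.

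Pdss1, which encodes the catalytic part of the tail synthase, lay at 25.6, 26.2 and 25.3 CPM in shCxxc5 replicates 2, 3 and 4, against 19.8, 20.7 and 21.5 CPM in shCtrl replicates 2, 3 and 4. All shCxxc5 libraries were above all shCtrl libraries, at 129%, 127% and 118% of the shCtrl level in pairs 2, 3 and 4. The fitted log2 fold change was 0.32 (SE 0.10) over all 6 libraries and 0.30 (SE 0.08) in replicates 3 and 4. Pdss1 exons share 194 bases, 4.57% of their length, with the antisense gene Abi1, and 207 bases, 4.87%, with the antisense pseudogene A130006I12Rik. Abi1 lay at 105 to 125 CPM, with log2 ratios of 0.22, 0.04 and -0.16 in pairs 2, 3 and 4. A130006I12Rik had 0 to 5 reads in a library. The part of the shared bases in the Pdss1 difference was not tested. Pdss2, the other subunit, lay at 20.9, 17.7 and 17.9 CPM in shCxxc5 and 13.6, 16.6 and 15.7 CPM in shCtrl in the same order. Its groups did not overlap either, but pair 2 carried most of the difference, with log2 ratios of 0.62, 0.09 and 0.18 in pairs 2, 3 and 4. That is also the pair in which the granule and mast cell genes differed most, and their part was not tested. The fitted value of Pdss2 was 0.30 (SE 0.14) over all 6 libraries and 0.14 (SE 0.10) in replicates 3 and 4.

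Coq2, the prenyltransferase that attaches the tail to the ring, lay at 46.2, 54.5 and 52.3 CPM in shCxxc5 replicates 2, 3 and 4, against 48.1, 59.5 and 61.8 CPM in shCtrl replicates 2, 3 and 4. It was lower in each pair by little, with log2 ratios of -0.06, -0.13 and -0.24, and the groups overlapped. A processed pseudogene, Gm6728, shares 7.63% of the 50-base stretches of Coq2 transcripts, so the counting could split reads between them. Gm6728 had 40 to 57 reads in a library.

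The methyltransferase genes differed little. Coq3, which methylates oxygens of the ring, lay at 24.7, 25.6 and 28.1 CPM in shCxxc5 and 28.9, 26.6 and 26.0 CPM in shCtrl (replicates 2, 3 and 4), with overlap and pairs of both signs. Coq5, which methylates a carbon of the ring, lay at 71.0, 65.5 and 71.2 CPM in shCxxc5 and 66.6, 67.8 and 65.9 CPM in shCtrl. Its fitted log2 fold change was 0.05 (SE 0.08), and that of Coq3 was -0.06 (SE 0.11). Coq5 was also the steadiest member, with an SD over the 6 libraries of 3.70% of its mean CPM, against 26.2% for Coq8a.

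Among the hydroxylation genes, Coq6, a flavin-dependent monooxygenase of the ring, lay at 41.8, 45.7 and 43.0 CPM in shCxxc5 replicates 2, 3 and 4, against 35.3, 38.8 and 40.8 CPM in shCtrl replicates 2, 3 and 4. The groups did not overlap, though the lowest shCxxc5 library was only just above the highest shCtrl library. Coq6 had a fitted log2 fold change of 0.19 (SE 0.10), and its exons share 128 bases with the antisense gene Fam161b. Coq7, the hydroxylase of a late step, lay at 20.5, 18.8 and 17.3 CPM in shCxxc5 and 20.2, 17.4 and 17.9 CPM in shCtrl, with overlap. Coq9, a lipid-binding partner of Coq7, lay at 79.4, 69.2 and 70.3 CPM in shCxxc5 and 76.5, 77.0 and 80.1 CPM in shCtrl. Coq9 was lower in pairs 3 and 4, at log2 ratios of -0.15 and -0.19, and higher in pair 2 at 0.05.

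The condition that picked Coq8a, a lower value in all 3 pairs, was met by 2 of the 10 members, Coq8a and Coq2, against 22.4% of all genes tested. Just inside it was Coq2, whose pair nearest to 0 stood at -0.06, and just outside was Coq9, with 0.05 in pair 2. In the other direction, 3 members (Pdss1, Pdss2 and Coq6) were higher in all 3 pairs, against 19.0% of all genes. The same 3 had groups without overlap on the higher side, against 6.72% of genes, and Coq8a was the 1 member without overlap on the lower side, against 6.35%. The median fitted log2 fold change was 0.02 over the members and -0.02 over all genes tested. These shares come from the contrast that picked Coq8a, and nothing is read from them.

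Over the whole table, 0 of 14637 genes (0%) were called between the hairpins by edgeR's quasi-likelihood test on all 6 libraries at an adjusted p under 0.05. The targeted gene Cxxc5 was not called either, at a fitted log2 fold change of -2.25 (SE 0.40). The lack of calls therefore does not show that genes were unchanged. At an unadjusted p under 0.05 stood 575 genes, and DESeq2 called 12 genes. In replicates 3 and 4 alone, with 2 libraries per group, 1278 of 14193 genes were called lower and 1555 higher, 20.0% in all. No call of a member is drawn on, since these libraries picked Coq8a. The fitted log2 fold changes in replicates 3 and 4 were -0.17 (SE 0.06) for Coq2 and -0.16 (SE 0.05) for Coq9.

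**Figure D2:**
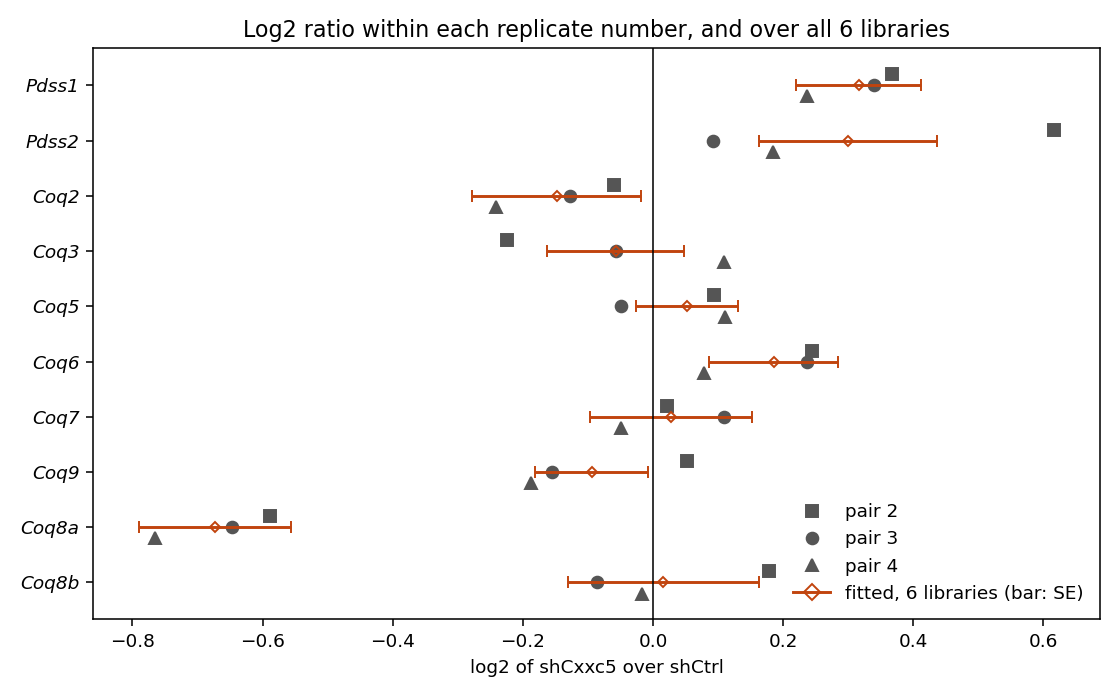
Log2 of shCxxc5 over shCtrl for each member on the x axis, within pairs 2, 3 and 4 (grey markers, TMM-scaled log2 CPM) and as fitted over all 6 libraries (open diamonds with SE). Coq8a stands at -0.77 to -0.59 in the 3 pairs, its paralog Coq8b at -0.09 to 0.18, and Pdss1 at 0.24 to 0.37.

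Levels were compared between genes as RPKM, the TMM-scaled CPM per kilobase of a gene's total exon length. Over all 6 libraries the mean order was Coq9 (24.7 ± 1.51 RPKM), Coq5 (22.4 ± 0.830), Coq2 (20.5 ± 2.35), Coq6 (13.0 ± 1.14), Coq3 (8.90 ± 0.524), Coq8b (5.70 ± 0.628), Pdss1 (5.46 ± 0.666), Coq8a (3.74 ± 0.980), Coq7 (2.90 ± 0.218) and Pdss2 (2.86 ± 0.410; SD, n = 6 libraries each). The ranges of Coq9, Coq5 and Coq2 met, while Coq6 at 11.2 to 14.5 RPKM and Coq3 at 8.25 to 9.64 RPKM each stood clear of their neighbours. Coq8b, Pdss1, Coq8a, Coq7 and Pdss2 formed a low group in which each range met that of its next neighbour.

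Coq8a and Pdss2 changed place most between the groups. Coq8a was last of the 10 in shCxxc5, at 2.89 ± 0.123 RPKM, and in place 8 in shCtrl, at 4.602 ± 0.421 RPKM (SD, n = 3 each). In shCxxc5 its level lay within the spread of Coq7 (2.93 ± 0.250 RPKM) and within 1 SD of Pdss2 (3.16 ± 0.302 RPKM), and in shCtrl it was above Coq7 (2.88 ± 0.232 RPKM) and Pdss2 (2.57 ± 0.258 RPKM) in every library. The order depends on the length used. Over the longest transcript of each gene, 6 of the 10 members kept their place, Pdss1 and Coq8b moved above Coq3, and Coq7 moved above Coq8a.

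**Figure D3:**
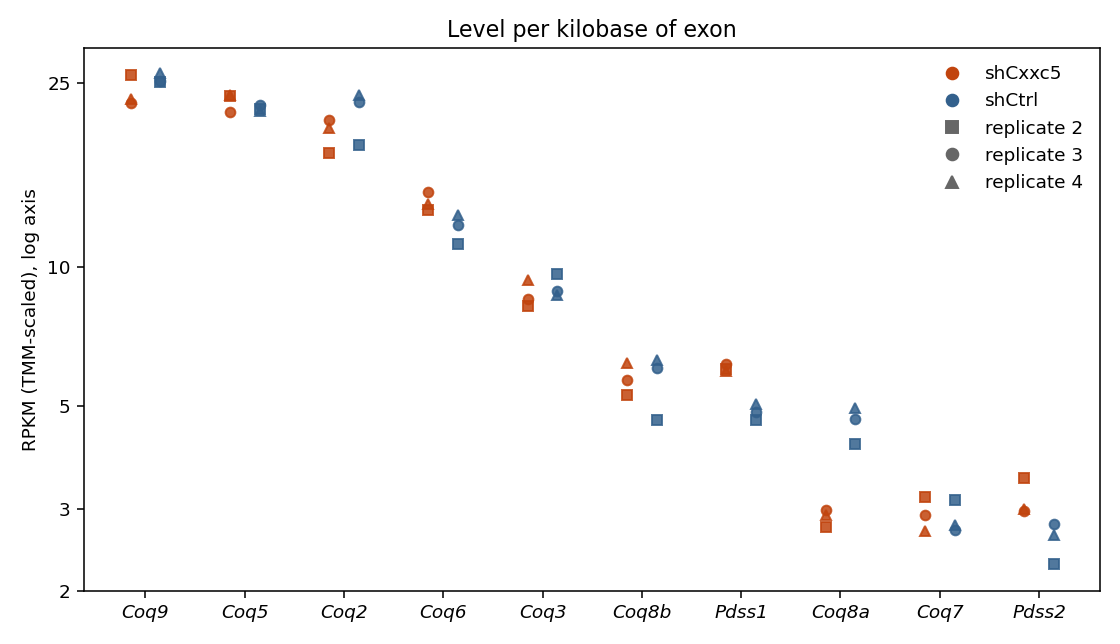
RPKM of each member in each library on a log axis, with members in order of their mean, shCxxc5 points left of shCtrl points and marker shapes for replicate numbers. Coq9, Coq5 and Coq2 lie at 17.6 to 26.2 RPKM, and Coq8a is the gene whose points split most by group, at 2.75 to 2.99 RPKM in shCxxc5 and 4.14 to 4.97 RPKM in shCtrl.

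The replicate 2 libraries were compared with those of replicates 3 and 4 in a fit that held the hairpin group as a term, a contrast that did not pick Coq8a. Of the 10 members, 1 was called lower in replicate 2, against 18.7% of all genes tested, and 0 were called higher by edgeR or DESeq2, against 17.7% in edgeR, nor was any member higher at an unadjusted p under 0.05. That member was Coq2, at 47.2 CPM on average in replicate 2 and 57.0 CPM in replicates 3 and 4, with a log2 fold change of -0.27 (SE 0.07, adjusted p = 0.0246 by edgeR's quasi-likelihood test). The call did not hold without any 1 of the 4 libraries of replicates 3 and 4, where the adjusted p was 0.0531 to 0.0774 at log2 fold changes of -0.31 to -0.26. Coq8b had the largest value, -0.28 (SE 0.09), with an adjusted p of 0.0514 in edgeR that missed the threshold. For Coq8a the value was -0.16 (SE 0.09, adjusted p = 0.196 in edgeR), for Coq7 0.19 (SE 0.09, adjusted p = 0.140), and for the other members -0.13 to 0.08. The median over the members was -0.02 on the log2 scale, near the -0.004 over all genes tested. It was 4.64 over 8 megakaryocyte genes and 3.08 over 5 erythroid genes tested, lists chosen with the replicate 2 difference known.

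**Figure D4:**
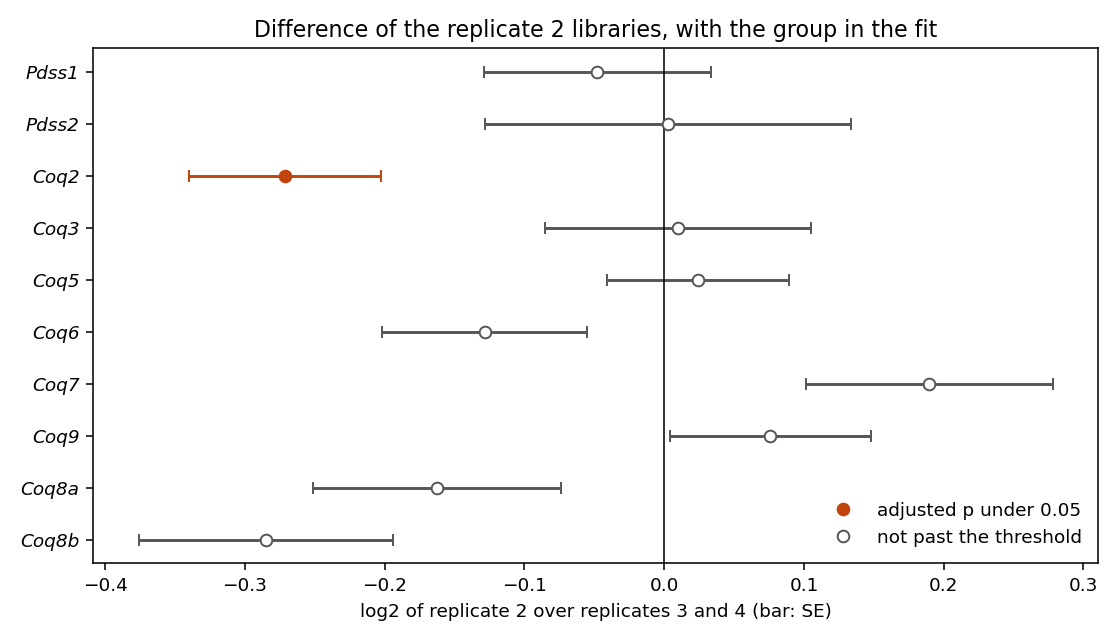
Log2 fold change of replicate 2 over replicates 3 and 4 for each member, from the fit with the hairpin group as a term, with bars for the SE and a filled point where edgeR's adjusted p is under 0.05. The values lie between -0.28 and 0.19, and Coq2 is the 1 filled point.

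The other lists of the pathway were described in the same way. The UbiB family has further mouse members outside coenzyme Q synthesis proper. Adck1 was lower in each pair, at 35.2 to 41.0 CPM in shCxxc5 and 41.6 to 47.1 CPM in shCtrl, with a fitted log2 fold change of -0.22 (SE 0.11) and no overlap between the groups. Adck2 had -0.14 (SE 0.15) and was also lower in each pair, at log2 ratios of -0.31, -0.05 and -0.05 in pairs 2, 3 and 4. Adck5 had -0.02 (SE 0.09). Thus 2 of these 3 genes were lower and 0 were higher in all 3 pairs, against 22.4% and 19.0% of all genes. In the replicate 2 contrast 0 of them were called. Of these 3 genes, 1 (Adck1) was called lower in replicates 3 and 4, where 1278 of all 14193 genes were. In all of them the fitted value was closer to 0 than that of Coq8a.

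Of 8 accessory genes, 7 were tested. Coq4, which takes part in the ring-modifying complex, differed least, at 26.8, 26.1 and 26.7 CPM in shCxxc5 and 27.0, 25.8 and 26.2 CPM in shCtrl (replicates 2, 3 and 4), though 27.1% of its exon bases overlap the antisense gene Trub2. The largest fitted log2 fold changes were 0.42 (SE 0.34) for Hpdl, linked in human cells to the making of 4-hydroxybenzoate, -0.18 (SE 0.13) for Coq10a and 0.12 (SE 0.16) for Coq10b, whose proteins bind coenzyme Q. Of the 7, 5 were higher and 1 was lower in all 3 pairs, against 19.0% and 22.4% of all genes. In replicates 3 and 4, 0 of the 7 were called by edgeR, and 0 had an unadjusted p under 0.05. The list's median was 0.07, against -0.02 over all genes. In the replicate 2 libraries 3 of the 7 were called lower than in replicates 3 and 4 and 0 higher, against 18.7% and 17.7% of all genes.

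The mevalonate enzymes, which supply the tail, held 5 of 9 genes that were higher in all 3 pairs and 0 that were lower in all of them, against 19.0% and 22.4% of all genes. In replicates 3 and 4, 6 of the 9 were called higher, as were 1555 of all 14193 genes. The largest fitted values over 6 libraries were 0.58 (SE 0.18) for Fdps, which makes farnesyl diphosphate, 0.40 (SE 0.46) for Hmgcs1 and 0.28 (SE 0.38) for Acat2. In the replicate 2 libraries 6 of these 9 genes were called lower than in replicates 3 and 4, against 18.7% of all genes, Hmgcs1 by the most at -1.24 (SE 0.10, edgeR adjusted p = 0.000416). Of 12 genes whose enzymes hand electrons to coenzyme Q, 3 were higher and 1 was lower in all 3 pairs, against 19.0% and 22.4% of all genes, with a median of 0.02. Sdhd, a membrane subunit of complex II, stood at 0.34 (SE 0.12). Sqor, the sulfide oxidoreductase, stood at -0.24 (SE 0.21), and its pairs went both ways, at 0.27 on the log2 scale in pair 2 and at -0.47 and -0.46 in pairs 3 and 4. In replicates 3 and 4 alone Sqor was called lower, at -0.46 (SE 0.13), the 1 gene of the 12 that was. Called higher there were 2 of the 12, Sdhd at 0.24 (SE 0.04) and Prodh at 0.20 (SE 0.07). Of all 14193 genes, 1278 were called lower and 1555 higher. Chdh, choline dehydrogenase, stood at 2.02 (SE 1.35), a value carried by pair 2, where the log2 ratio was 2.66, against -0.22 and -0.71 in pairs 3 and 4. In the replicate 2 libraries 4 of the 12 genes were called lower than in replicates 3 and 4 and 3 higher, against 18.7% and 17.7% of all genes.

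The genes most like Coq8a over the 6 libraries were found by the root mean square distance between log2 CPM profiles, each centred on its own mean, among 11050 genes with a mean log2 CPM of at least 1. The 5 nearest were Ddit4, an inhibitor of mTORC1 signalling (distance 0.0478 log2 units), Esr1, the estrogen receptor alpha gene (0.0657), the heparan sulfate proteoglycan gene Sdc4 (0.0936), the phosphatase gene Dusp5 (0.0982) and Rdm1 (0.122). Ddit4 lay at 50.2, 58.2 and 53.3 CPM in shCxxc5 replicates 2, 3 and 4, against 72.0, 84.5 and 91.4 CPM in shCtrl replicates 2, 3 and 4. As for Coq8a, its groups did not overlap, and its lowest shCtrl library was replicate 2. The nearest other member was Coq2, at a distance of 0.267 and in place 545 of the candidates, and Coq8b stood at 0.355. The likeness rests on 6 libraries and on the same contrast that picked Coq8a.

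**Figure D5:**
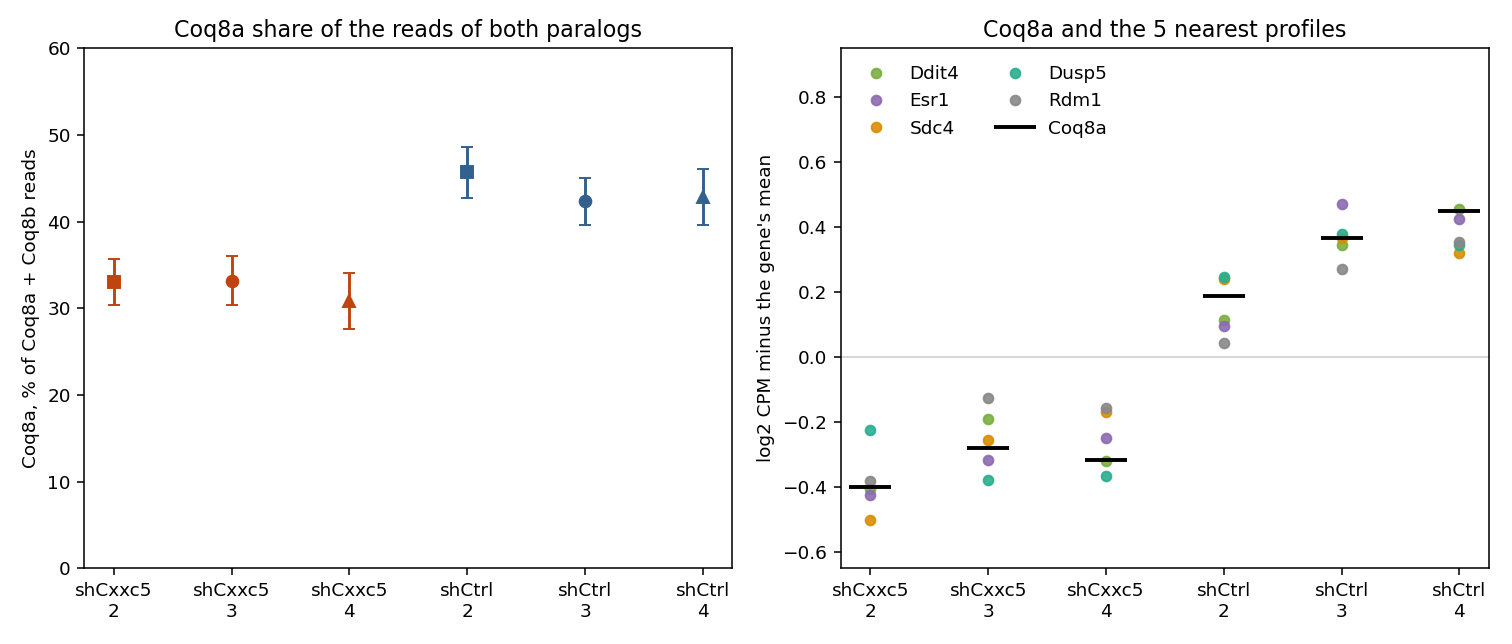
Left, the share of Coq8a among the reads of Coq8a and Coq8b in each library, in percent, with exact 95% binomial intervals; right, log2 CPM minus the gene's own mean for Coq8a (black bars) and its 5 nearest genes (points) in the same libraries. The Coq8a share lies at 30.8% to 33.2% in shCxxc5 and at 42.3% to 45.7% in shCtrl, and the profile of Coq8a lies at -0.40 to -0.28 in shCxxc5 and 0.19 to 0.45 in shCtrl.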

How the data were processed

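Raw read counts per Ensembl gene (49671 genes, 6 libraries) were deposited by the authors. The submitters' processing notes name STAR 2.5.2b, featureCounts 1.5.1, DESeq2 and the build GRCm38. The annotation release and the strand setting of the counting are not stated in any source used here. Symbols and exon lengths came from GENCODE M21 (GRCm38), which matched 49326 identifiers. Start windows came from RefSeq (GRCm38.p6).

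The 14637 genes that passed filterByExpr were fitted in edgeR 4.0.16 (R 4.3.3) by the robust quasi-likelihood method after TMM scaling. The group was the only term in the hairpin contrast, and the group and replicate 2 were the terms in the replicate 2 contrast. Adjusted p-values are Benjamini-Hochberg values over all genes, with a threshold of 0.05. The SE is the absolute log2 fold change over the root of the F statistic. Log2 CPM has a prior count of 2, and pair ratios use it. The code was tested on simulated counts.

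The members and lists were chosen with earlier results of these data known. All members were to be named, with Coq4, the other UbiB genes, the 3 genes of largest absolute fitted log2 fold change per further list, and the 5 genes nearest to Coq8a whose symbol is not a clone or predicted name. Cdc42bpa and the other overlapping genes fall outside that rule and were chosen after seeing their values.

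Replicate numbers occur in both groups. The libraries were paired by these numbers. Libraries of equal number deviated together from their group means, with correlations over genes of 0.670, 0.554 and 0.489 for numbers 2, 3 and 4. Libraries of unequal number among 3 and 4 gave 0.475 and 0.489, which does not tell number 3 from number 4. Deviations are from a mean of 3 libraries, so an outlying replicate 2 by itself moves numbers 3 and 4 together. The values show that number 2 stands apart in both groups, and not that 3 and 4 form pairs. Alternatives were DESeq2 1.42.0, RLE scaling, no filter, the replicate block, leaving out each library, replicates 3 and 4 alone and the longest transcript as length. Counts carry no molecular identifiers, and intervals cover counting error only.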

Additional observations from a re-analysis of the deposited data

How the results depend on the processing

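Coq8a had a fitted log2 fold change of -0.74 to -0.61 between the hairpins over all alternatives, and -0.67 (SE 0.10) with the replicate block, under which 0 genes and 0 members were called. The block was fitted for the hairpin contrast only. The signs of Coq3, Coq7 and Coq8b, whose fitted values lay near 0, turned under at least 1 alternative. Between the hairpins, DESeq2 called 12 genes and 0 members, and replicates 3 and 4 alone gave 2833 genes and 4 members, 1 of them higher and 3 lower. Those libraries are among the ones that picked Coq8a, so the 4 calls support nothing. The common biological coefficient of variation that edgeR fitted, its measure of spread between libraries of a group, was 0.312 over all 6 libraries. In replicates 3 and 4 alone it was 0.0294, and the SEs and calls there rest on that small spread. The cause of the larger counts was not tested. For replicate 2 over replicates 3 and 4, 5330 genes were called with all libraries, 8816 without shCxxc5 replicate 2, 3183 without shCtrl replicate 3 and 3531 without shCtrl replicate 4. Without 1 of the 4 libraries of replicates 3 and 4, 0 of the 10 members were called. Genes called were 3725 of 15188 and 3892 of 15285 without shCxxc5 replicates 3 and 4. They were 3183 of 15230 and 3531 of 15245 without shCtrl replicates 3 and 4. Without the filter, 2 of the 10 members were called lower, Coq2 and Coq8b, and 0 higher. Of all 27017 genes tested without the filter, 3142 were called lower and 3070 higher. In that contrast the sign turned for Pdss2 (-0.012 in DESeq2, -0.022 without the filter, -0.26 to 0.23 with 1 library left out), Coq3 (-0.0062 in DESeq2, -0.017 without the filter, -0.11 to 0.13 with 1 library left out), Coq5 (-0.0021 without the filter, -0.019 to 0.059 with 1 library left out) and Coq9 (-0.038 to 0.19 with 1 library left out); the cause was not tested. Without shCtrl replicate 2 the log2 fold change of Coq9 was 0.19, and without shCxxc5 replicate 2 that of Coq8b was -0.40. A fit that leaves out a replicate 2 library assumes that the lone one varies like the others. For the members, only log2 fold changes are therefore given for such fits. Over the longest transcript, 6 of 10 members kept their place, and the mean log2 ratio of Coq8a to Coq8b was -1.24, against -0.64 over exon length. With 234 to 2284 reads per member and library, counting error alone limits small differences such as those of Coq3, Coq5 and Coq7.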
